A study of Bubalus bubalis with 8 samples.

Results

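The BCL2 family and the caspase 8 switch were followed in buffalo mammary epithelial cells (MECs) through recovery from heat stress. The members were 9 genes, BCL2, BCL2L1, BCL2A1, MCL1, CFLAR, BAX, BID, BCL2L11 and CASP8, and all probes of the array annotated with 1 of these names were taken. They amounted to 19 of 43653 probes, 10 for 5 pro-survival genes and 9 for 4 pro-death genes, out of 24839 gene names on the array. The cells were a primary culture of *Bubalus bubalis* mammary gland from a single animal at passage 10, grown at 37 °C. The unstressed control (CTR) stayed at that temperature, and the other cultures were held at 42 °C for 1 h and harvested after 30 min, 2, 4, 8, 12, 16 and 24 h of recovery. Each of the 8 conditions was hybridised once to a 1-colour bovine array, so there are no replicates, no statistical test was possible and every difference below compares 2 arrays. The question addressed was which survival and death genes changed with time after heat stress.

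Proteins of the BCL2 family decide whether the outer membrane of the mitochondrion stays intact or is opened during apoptosis. BCL2, BCL2L1 (BCL-XL), BCL2A1 and MCL1 hold back the pore-forming effector BAX, and the BH3-only proteins BCL2L11 (BIM) and BID counteract these guardians or activate the effectors. CASP8 is the initiator caspase downstream of death receptors, CFLAR (c-FLIP) restrains it, and BID links it to mitochondria when CASP8 cleaves it. In the mammary gland, apoptosis of epithelial cells is known as a feature of involution after lactation.

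The probes are 60 bases long, were designed on bovine transcripts and were hybridised to buffalo RNA, so mismatches may lower their signal. Positions are given on the bovine build Btau_3.1 as stated in the array headers; no annotation of that build was used here, so an exon or UTR cannot be assigned to them. Printed below is 1 probe each of BCL2A1, BCL2, MCL1 and BAX, with BID and CFLAR as the link to the death receptor branch. The MCL1 probe printed is not the one that was higher at 30 min and 2 h, A_73_104021, and the BCL2L11 probe is not printed. All 6 hold at least 1 reading frame with no stop codon, and no base is singled out by capitals.
BCL2A1 A_73_P208327: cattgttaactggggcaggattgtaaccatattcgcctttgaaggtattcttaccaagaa
BCL2 A_73_P108956: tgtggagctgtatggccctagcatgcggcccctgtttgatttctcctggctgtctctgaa
MCL1 A_73_P271841: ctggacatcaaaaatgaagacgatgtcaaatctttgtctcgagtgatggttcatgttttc
BAX A_73_P036793: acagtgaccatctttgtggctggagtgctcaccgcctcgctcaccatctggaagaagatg
BID A_73_P040206: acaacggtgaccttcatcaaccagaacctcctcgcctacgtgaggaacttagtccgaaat
CFLAR A_73_104047: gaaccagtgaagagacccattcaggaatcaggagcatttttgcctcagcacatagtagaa

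The BCL2A1 probe lies at chr21:25764163-25764222 on the minus strand, the BCL2 probe at chr24:64012021-64012080 on the minus strand and the MCL1 probe at chr3:21667543-21667602 on the plus strand. The BAX probe lies at chr18:55543185-55543244 on the plus strand and the BID probe at chr5:116158833-116158892 on the minus strand. The CFLAR probe is split over chr2:94033084-94033828 on the plus strand, 745 bases for 60 of probe, so it crosses an exon junction. The GC content of the 19 member probes ran from 35.0 to 68.3%, with a median of 45.0%, the same as that of all probes on the array.

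A level is the processed intensity on the log2 scale, set relative to the 75th percentile of all probes on that array, so 0 marks a probe at that percentile. Levels of different probes are not comparable as amounts of RNA, and only 1 probe is followed across arrays. Levels given as a series below are in the order CTR, 30 min, 2, 4, 8, 12, 16 and 24 h. A probe was called detected where the scanner software flagged it as well above background. The 30 min level was taken from the authors' deposited log2 values, because the scanner file labelled 30 min departs from them (median difference over probes 2.33 on the log2 scale), and it counted as detected at or above 0.24, the highest detection limit among the other arrays. By the flags of that scanner file itself, 8 of the 19 member probes were well above background. They were BCL2L1 A_73_119599, BCL2A1 A_73_P037501, BAX, BCL2L11, CFLAR and CASP8 A_73_P309506, A_73_P107131 and A_73_P034161. Neither BCL2A1 A_73_P208327, BCL2 nor any MCL1 probe was among them. Where 1 of 2 arrays was not well above background, that side was raised to the detection limit of its array if below it. The limit is the lowest level flagged as well above background on that array. An undetected level above the limit was kept as measured. In either case the change is written as at least that size. A change of 3-fold was used as the threshold. Errors are the SD between spots of a repeated probe, pooled over such probes on an array and combined over the 2 arrays. They are the same for every probe of a pair of arrays and do not measure the precision of a bound. They run from 0.29 to 0.52 for changes from CTR and cover technical error within an array only. The deposited 30 min values carry no spots, so the spot SD of CTR stood in.

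Before the results, several arrays require a remark. The 75th percentile of the processed intensity ranged from 121 at 16 h to 423 at 12 h over the 7 arrays other than 30 min, and 23.3 to 40.2% of the probes on them were well above background. CTR, 8, 12 and 24 h were hybridised on 1 slide, and 30 min, 2, 4 and 16 h on another. A comparison of the latter with CTR is therefore also a comparison of slides, and slide and time cannot be told apart. Values against the 16 h array of the same slide are given beside the main changes. The 16 h culture was itself heat-stressed, so these values do not compare with unstressed cells. The CTR array had a dark patch of 3357 probes, left out here; 0 of the member probes lie in it. Epithelial markers were present throughout, with 7 or 8 of 8 detected on every array; KRT18 was detected at 2 and 16 h only. The summed epithelial signal, as multiples of the 75th percentile, was 701 in CTR, 239 at 30 min, 245 at 2 h and 351 to 579 later.

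The milk protein list stood apart on the second slide, and the leukocyte list on its 30 min and 2 h arrays only. Of 6 leukocyte markers, 1 was detected in CTR (PTPRC), 4 at 30 min (CD14, CD3E, CD68, PTPRC) and 5 at 2 h, where CD2 joined them. ITGAM was detected on neither of these arrays. The summed leukocyte signal was 7.1 in CTR, went to 98.7 (30 min) and 67.0 (2 h), against 5.4 to 15.1 from 4 to 24 h. Milk protein genes, CSN1S1, CSN2, CSN3 and LALBA, were all detected on the 4 arrays of the second slide and only CSN2 on those of the first. Their summed signal was 5.5 to 8.3 on the first slide; on the second it was 58.6 to 91.1 at the earliest times, 1100 after 4 h and 1934 after 16 h. The summed fibroblast signal lay between 151 and 363 and the endothelial signal between 1.0 and 5.0. In a bulk sample, fewer cells of a type and less RNA per cell cannot be told apart.

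**Figure D1:**
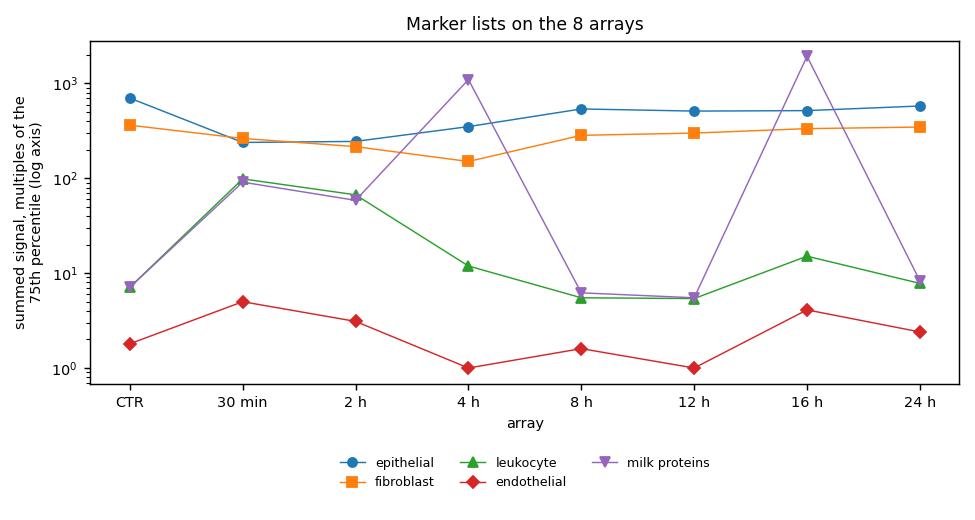
Summed signal of 5 marker lists on each array, in multiples of the 75th percentile of that array, on a log axis. The leukocyte list is highest at 30 min (98.7) and 2 h (67.0), and the milk protein list at 4 h (1100) and 16 h (1934).

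Of the 19 member probes, 8, 10, 18, 15, 8, 11, 7 and 5 were detected, in the same order of arrays. The 5 probes detected on all 8 arrays were those of BAX (A_73_P036793), BCL2L1 (A_73_119599), BID (A_73_P040206) and MCL1 (A_73_P271841 and A_73_104021), and only BCL2L1 A_73_P330086 was detected on none. Nothing was saturated. Apart from 30 min, these numbers are highest where the share of all probes detected was highest, at 2 and 4 h.

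**Figure D2:**
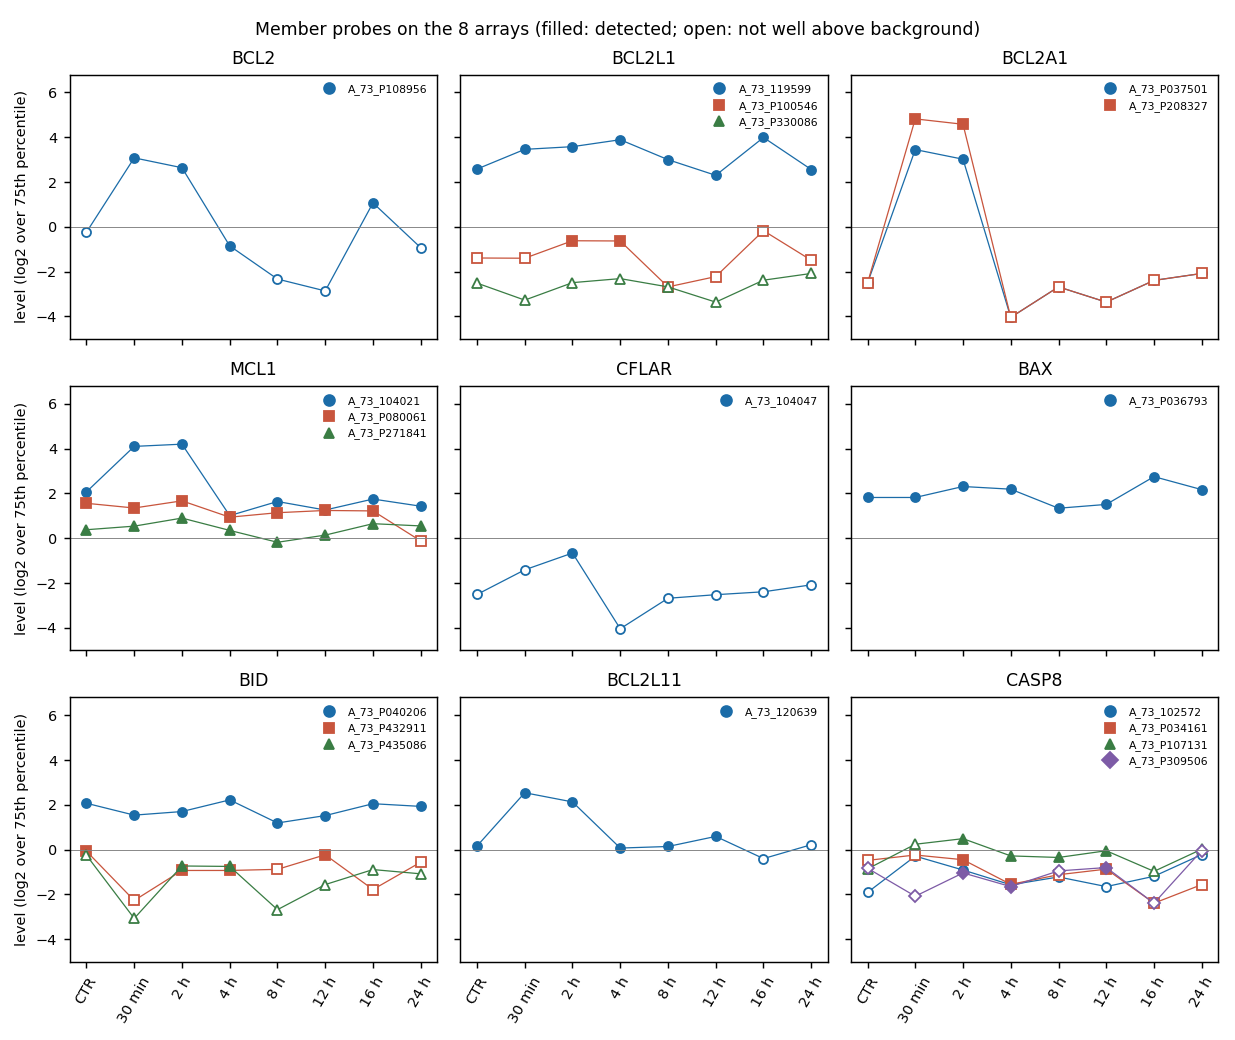
Level of each member probe (log2 over the 75th percentile of its array) on the 8 arrays, 1 panel per gene and 1 marker per probe, with filled markers where the probe was detected. BCL2, BCL2A1, BCL2L11 and 1 probe of MCL1 stand high at 30 min and 2 h, while BAX stays between 1.34 and 2.75 on all arrays.

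The members at least 3-fold higher than CTR were 4, 3 of them pro-survival (BCL2, BCL2A1, MCL1) and 1 pro-death (BCL2L11), both at 30 min and at 2 h, through 5 probes. At 30 min these were 5 of the 11 member probes detected on either array compared, beside 7.6% of all probes higher and 4.61% lower. At 2 h they were 5 of 18, beside 5.32% of all probes higher and 7.76% lower. Both comparisons share the CTR array. BCL2A1 and BCL2 entered these counts only through the arrays on which they were high, since both were dim in CTR. No member was called 3-fold lower than CTR at any time point, although probes that gave only a bound or no value could have fallen further.

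From 4 h on, the count of members called past 3-fold was 0 in either direction, but it differed under some alternatives. Normexp background correction put BCL2L1 A_73_119599 past 3-fold at 4 h (1.83 on the log2 scale, against 1.31), as scaling by the array median also did for this gene. The array median also put MCL1 lower at 24 h, and the same-slide reference put BCL2 lower at 4 h. With no filter on dim probes, BCL2 was lower at 8 and 12 h, BID at 8 and 16 h, CASP8 at 16 h and MCL1 at 24 h. CASP8 was then higher at 24 h. In the main processing the background was 2.66% higher and 5.37% lower after 4 h, then 0.552% and 0.192% after 8 h. It was 0.169% and 0.457% after 12 h, 5.98% and 5.31% after 16 h, and finally 0.0974% and 0.611% after 24 h. With 8 to 15 member probes detected on either array, the background corresponds to less than 1 member probe at each of these times in each direction. Over the member probes bright on both arrays (5 to 8 probes), the median change was 0.16 at 30 min and 0.51 at 2 h, and between -0.42 and 0.12 at the later times. Over all probes the medians were -0.22, -0.41 and between -0.29 and -0.01.

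**Figure D3:**
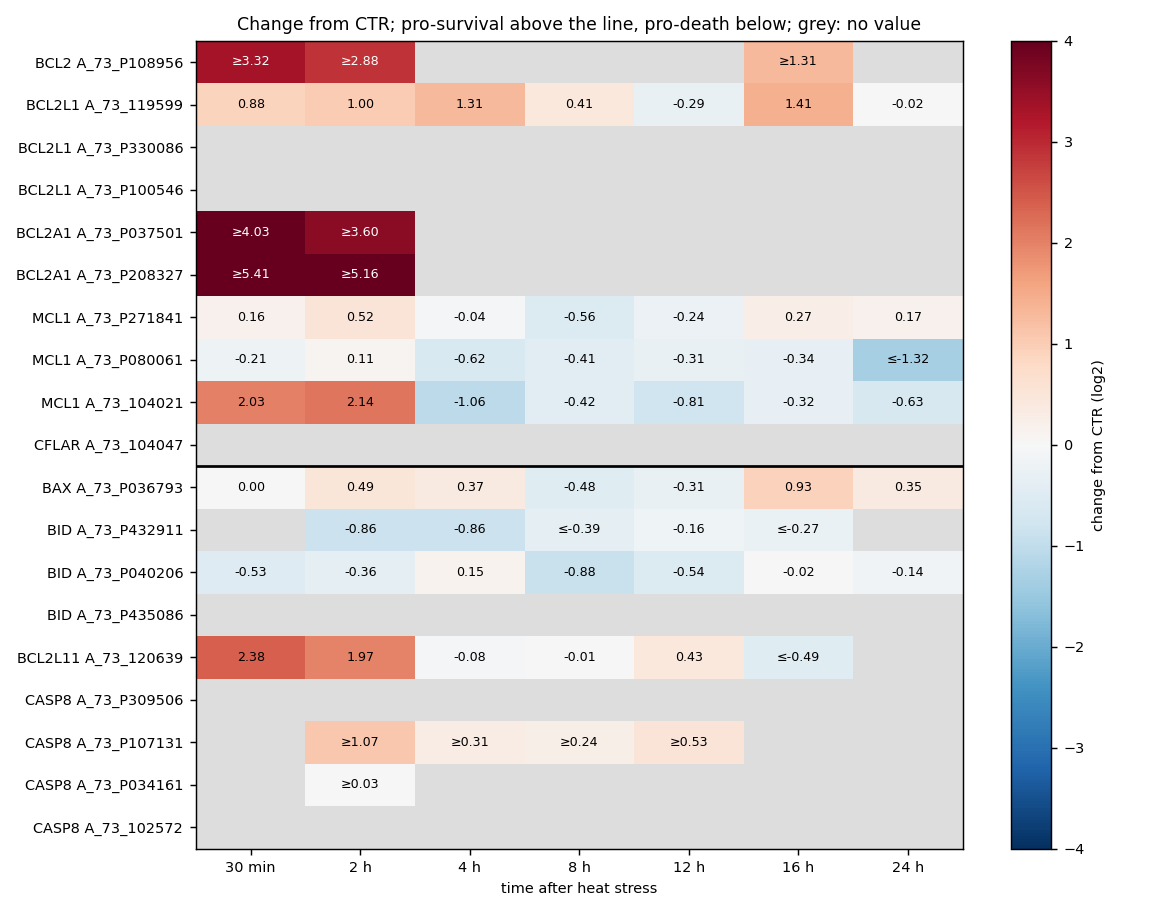
Change of each member probe from CTR on the log2 scale at the 7 time points; a sign of ≥ or ≤ marks a bound and grey marks pairs of arrays that give no value. The strongest changes, at least 3.60 to at least 5.41 for BCL2A1, are confined to 30 min and 2 h, and BAX stays within 0.93 of CTR.

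BCL2A1, a pro-survival member known for its expression in blood cells and as a target of NF-kB, was detected at 30 min and 2 h alone, and its changes are lower bounds. Its probe A_73_P208327 had a level of 4.82 at 30 min and 4.58 at 2 h; on the other 6 arrays it was not well above background, with placeholder levels from -4.04 to -2.08. The second probe, A_73_P037501, which lies 9163 bases away, had levels of 3.45 at 30 min and 3.02 at 2 h and was likewise not detected on the other 6 arrays. So both probes separated the same 2 arrays from the rest. The 30 min level was at least 42.4-fold over CTR by the first probe (5.41 ± 0.30 on the log2 scale) and at least 16.4-fold by the second (4.03). At 2 h the bounds were 35.8-fold (5.16 ± 0.36) and 12.1-fold (3.60). Against the 16 h array of the same slide the bounds were 35.7-fold and 13.8-fold at 30 min, and 30.2-fold and 10.2-fold at 2 h. The 2 arrays with detected BCL2A1 were those with the highest summed leukocyte marker signal, 98.7 and 67.0 against 5.4 to 15.1 elsewhere, and the part of these markers in the result was not tested.

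BCL2, the founding pro-survival member, was measured by a single probe. Its series of levels was -0.24, 3.08, 2.64, -0.85, -2.33, -2.86, 1.07 and -0.93. Only the values 3.08, 2.64, -0.85 and 1.07, those of 30 min, 2, 4 and 16 h, were detected. These arrays all belong to the second slide, and no array of the first slide detected BCL2. This division holds for detection and not for level. The detected 4 h level of -0.85 lay below the undetected CTR level of -0.24, and the detection limits were -1.78 at 4 h and -0.585 in CTR. The 4 arrays of the second slide were also those with all 4 milk protein genes detected, and the part of that difference in the result was not tested. The 30 min level was at least 9.97-fold over CTR (3.32 ± 0.30) and the 2 h level at least 7.38-fold (2.88 ± 0.36), while the bound for 16 h was 2.49-fold (1.31 ± 0.52). The CTR level of -0.24 lay above the detection limit of that array, so these sizes equal the measured differences. Within the second slide BCL2 was 4.01-fold higher at 30 min than at 16 h (2.00 ± 0.52), 2.97-fold higher at 2 h (1.57 ± 0.55) and lower than it after 4 h (-1.93 ± 0.56). The 2 h value is thus just short of 3-fold relative to the heat-stressed 16 h array of the same slide.

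MCL1, a short-lived guardian of the mitochondrion, was measured by 3 probes that disagreed. Probe A_73_104021 gave the levels 2.07, 4.10, 4.20, 1.01, 1.64, 1.26, 1.75 and 1.43, so that 30 min and 2 h stood above the other 6 arrays. It was 4.09-fold over CTR at 30 min (2.03 ± 0.30) and 4.40-fold at 2 h (2.14 ± 0.36), then 2.08-fold under it by 4 h (-1.06 ± 0.36). Against 16 h the increases were 5.10-fold at 30 min and 5.50-fold at 2 h.

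Probe A_73_P271841 of MCL1, whose sequence is given above, did not follow this course. Its levels were 0.38, 0.54, 0.90, 0.35, -0.18, 0.14, 0.65 and 0.55. The changes from CTR lay between -0.56 and 0.52. Probe A_73_P080061 had levels of 1.56, 1.35, 1.67, 0.94, 1.14, 1.24, 1.22 and -0.12, the last not well above background, which puts the change from CTR at -1.32 or lower by 24 h. The change of A_73_104021 exceeded that of A_73_P271841 by 1.87 ± 0.43 at 30 min and 1.62 ± 0.50 at 2 h, and that of A_73_P080061 by 2.24 and 2.03. The first probe lies 3363 bases downstream of A_73_P271841 and 2632 bases downstream of the end of A_73_P080061, on the same strand. A difference between probes of 1 array does not depend on the scaling of that array. The MCL1 call at 30 min and 2 h therefore rests on 1 of 3 probes. With the 30 min scanner intensities in place of the deposited values, this probe was lower than CTR at 30 min (-1.5 or lower), while the 2 h value does not use that file.

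BCL2L1, another guardian, differed from CTR on the arrays of the second slide, by less than 3-fold. Its bright probe A_73_119599 had levels of 2.58, 3.46, 3.58, 3.89, 3.00, 2.30, 3.99 and 2.56. The 4 arrays of the second slide, 3.46 to 3.99, all lay above the 4 of the first, 2.30 to 3.00, which is again the division seen for the milk protein genes; its part in the result was not tested. On the second slide it exceeded CTR by 1.84-fold, 2.00-fold, 2.47-fold and 2.66-fold in order of time, none past 3-fold. Against 16 h of the same slide the differences at the 3 earlier times were -0.54 ± 0.52, -0.41 ± 0.55 and -0.11 ± 0.56 on the log2 scale, near or under the spot error. Of the other BCL2L1 probes, A_73_P100546 was detected at 2 h (-0.62) and 4 h (-0.63) only, and A_73_P330086 on no array.

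CFLAR, which blocks CASP8 at the death receptor, was detected on 1 of 8 arrays, at 2 h, with a level of -0.66. That level lay below the detection limit of CTR (-0.585), so no change can be given. On the other arrays its undetected level ran from -4.04 to -1.41. The scanner file labelled 30 min flagged CFLAR as well above background, but its deposited level at that time was the -1.41.

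Among the pro-death genes, BAX, the effector that forms pores in the mitochondrial membrane, was detected on every array and varied little. Its levels were 1.82, 1.82, 2.31, 2.19, 1.34, 1.51, 2.75 and 2.17. The largest change from CTR was 1.91-fold higher at 16 h (0.93 ± 0.52), and the lowest was -0.48 ± 0.29 at 8 h. Within the second slide BAX was lower than at 16 h at the other 3 times, by -0.93, -0.44 and -0.56.

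BCL2L11, a BH3-only protein that binds all of the guardians, was the pro-death gene that changed. Its probe gave the levels 0.16, 2.54, 2.13, 0.07, 0.14, 0.59, -0.40 and 0.22, of which the last pair, 16 and 24 h, fell short of detection. The 30 min and 2 h arrays thus stood above all others. The difference from CTR was 5.22-fold at 30 min (2.38 ± 0.30) and 3.92-fold at 2 h (1.97 ± 0.36), whereas from 4 to 12 h it lay between -0.08 and 0.43. Against 16 h the bounds were 7.34-fold at 30 min and 5.52-fold at 2 h. As for BCL2A1, BCL2 and MCL1 A_73_104021, these were the arrays with the highest leukocyte marker signal and the lowest epithelial marker signal, and the part of these markers in the result was not tested.

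BID, the BH3-only protein cut by CASP8, was detected on every array by A_73_P040206, with levels of 2.07, 1.54, 1.70, 2.22, 1.19, 1.52, 2.05 and 1.93. Its changes lay between -0.88 ± 0.29 at 8 h and 0.15 ± 0.36 at 4 h. A second probe, A_73_P432911, was detected in CTR (-0.07), at 2 h (-0.93), 4 h (-0.93) and 12 h (-0.23), and was 1.82-fold lower at 2 h. The third, A_73_P435086, was detected at 2 h (-0.73) and 4 h (-0.75) alone. No BID value or bound passed 3-fold, but the bounds and missing values of the dimmer probes do not show that a larger fall was absent.

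CASP8 was near the detection limit. Its 4 probes all missed detection in CTR, at 30 min and on the last pair of arrays. At 30 min A_73_P107131 missed it narrowly, with a level that after rounding equalled the limit of 0.24 taken from another array. The scanner file labelled 30 min did flag A_73_P309506, A_73_P107131 and A_73_P034161 as well above background, unlike the deposited values used here. A_73_P107131 was detected at 2 h (0.49), 4 h (-0.28), 8 h (-0.35) and 12 h (-0.05), and was at least 2.10-fold over CTR at 2 h (1.07 ± 0.36). A_73_P309506 and A_73_P034161 were detected at 2, 4 and 12 h, with levels from -1.65 to -0.45, and A_73_102572 at 2 h (-0.91) and 4 h (-1.57). Only 1 of these 3 allowed a value, at least 1.02-fold higher at 2 h for A_73_P034161. The 2 and 4 h arrays have the lowest detection limits of the series (-2.24 and -1.78, against -0.585 in CTR), so detection there does not by itself show a higher level.

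The balance of pro-death to pro-survival genes was read as the difference between 2 changes on the same arrays. BAX minus MCL1 A_73_104021 was -2.03 ± 0.43 at 30 min and -1.65 ± 0.50 at 2 h, that is, MCL1 rose 4.08-fold and 3.13-fold more than BAX by this probe. Relative to 16 h of the same slide it was -3.28 ± 0.73 and -2.90 ± 0.78. The sign turned at 4 h relative to CTR (1.43 ± 0.51), but relative to 16 h the 4 h difference was 0.17 ± 0.79, inside its error. Relative to CTR the difference was 1.25 ± 0.73 by 16 h and 0.98 ± 0.51 by 24 h. Against the other MCL1 probe detected on all arrays, A_73_P271841, BAX differed by -0.16 to 0.67 relative to CTR, within the spot error at all 7 times. The third MCL1 probe, A_73_P080061, gave larger late differences. Relative to CTR, BAX exceeded it by 0.99 ± 0.51 after 4 h and 1.27 ± 0.73 on the 16 h array. The last array, 24 h, gave a bound of 1.67 or higher, past 3-fold. On the remaining arrays the difference was -0.07 to 0.38, within the spot error. Against 16 h of the same slide, the 3 earlier arrays gave -1.05 ± 0.73, -0.89 ± 0.78 and -0.28 ± 0.79. BAX minus BCL2L1 A_73_119599 was -0.87 ± 0.43, -0.51 ± 0.50, -0.94 ± 0.51 and -0.90 ± 0.40 at the first 4 times and between -0.48 and 0.37 later. Within the second slide, relative to 16 h, this difference was -0.39 ± 0.73, -0.04 ± 0.78 and -0.46 ± 0.79 at the 3 earlier times, all inside the spot error. BAX minus BCL2, which was dim in CTR, was -3.31 or lower at 30 min and -2.39 or lower at 2 h, and relative to 16 h it was -2.93 ± 0.73 and -2.01 ± 0.78, turning to 1.36 ± 0.79 by 4 h. CASP8 against CFLAR gave no value.

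With BCL2L11 as the pro-death gene, a pair added after its values were seen, the balance at 30 min and 2 h was different. BCL2L11 minus MCL1 A_73_104021 was 0.35 ± 0.43 and -0.17 ± 0.50, within the spot error, since both were higher. Against MCL1 A_73_P271841 the change of BCL2L11 was the larger, by 2.22 ± 0.43 and 1.45 ± 0.50, and against BCL2L1 A_73_119599 by 1.51 ± 0.43 and 0.97 ± 0.50. BCL2L11 minus BCL2 was -0.93 or lower and -0.91 or lower relative to CTR, but 0.87 or higher and 0.89 or higher relative to 16 h, so its sign depended on the reference array. The balance at these times thus differed by the pro-death gene, the MCL1 probe and the reference chosen.

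**Figure D4:**
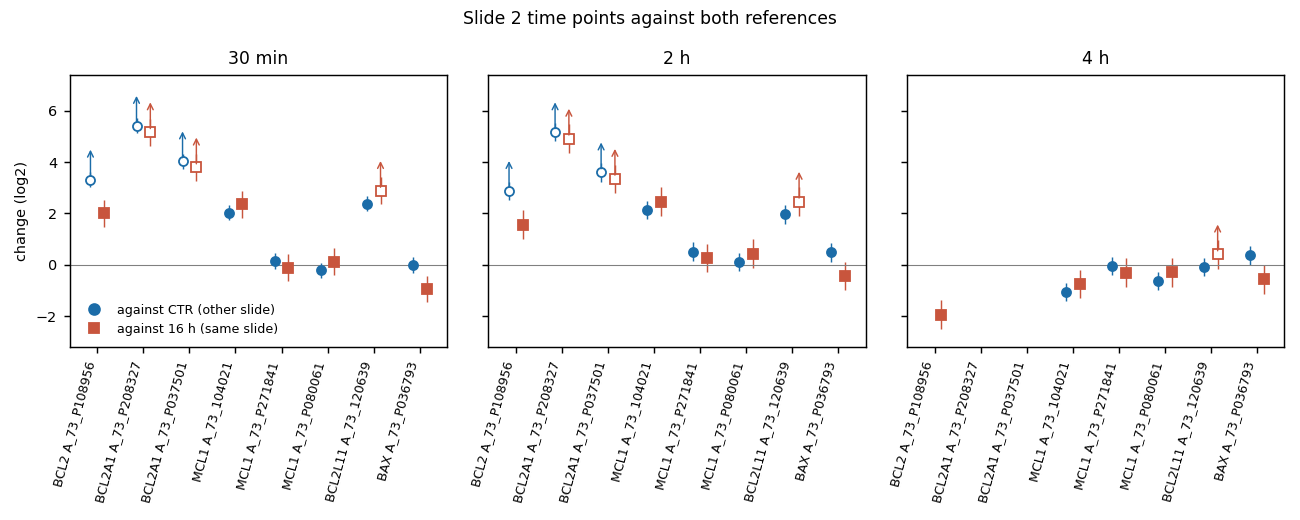
Change on the log2 scale at 30 min, 2 h and 4 h against CTR (circles, other slide) and against 16 h (squares, same slide) for 8 member probes; bars are the combined spot SD and open markers with arrows are bounds. BCL2A1, BCL2L11 and MCL1 A_73_104021 are past 3-fold at 30 min and 2 h against both references, while BCL2 at 2 h falls to 1.57 within the slide.

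The other genes of the pathway were read from a list of 49, of which 45 had a probe and 37 were detected on at least 1 array outside the dark patch. At 30 min, 4 of 28 genes with a usable probe were 3-fold higher and 0 lower, beside 7.6% and 4.61% of all probes. At 2 h, 5 of 32 were higher and 2 lower, beside 5.32% and 7.76% of all probes. The calls of PMAIP1, BIRC3 and BNIP3 at both times, and of BCL2L15 at 2 h, came from probes dim in CTR. Those probes entered the counts only through the arrays on which they were high. Of 27 genes, 1 was higher and 2 lower after 4 h, and 1 higher and 2 lower after 16 h, where 2.66% and 5.37%, and 5.98% and 5.31%, of all probes were called. A gene here may be called through any of several probes, so these shares are per probe and the counts per gene, and the counts after 4 and 16 h and the lower count at 2 h are near the background. At 8, 12 and 24 h none of the 25 to 30 genes passed 3-fold, beside 0.0974 to 0.611% of all probes in a given direction, so this too is near the background. In all, 9 of them passed at 1 or more times.

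Of the BH3-only genes, PMAIP1 (NOXA), a partner of MCL1, was dim in CTR and reached a level of 3.02 at 30 min and 2.69 at 2 h, bounds of 11.9-fold and 9.52-fold over CTR. BBC3 (PUMA), a target of p53, was 2.96-fold lower at 2 h and at least 3.37-fold lower by 4 h. BAD differed from CTR by -0.71 to 0.97 by its 2 probes detected in CTR. Among effectors, BOK, a relative of BAX, was 1.53-fold lower at 2 h, 3.22-fold lower after 4 h and by a bound of 3.15-fold lower after 16 h, and BAK1 did not reach 3-fold at any time.

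The inhibitor of apoptosis BIRC3, a ubiquitin ligase of the TNF receptor complex, was not detected in CTR and A_73_P102586 gave bounds of 7.34-fold at 30 min and 4.75-fold at 2 h over it. Its other usable probes gave bounds of 1.74-fold to 2.40-fold. BIRC5 (survivin), which acts in cell division, went the other way, 3.78-fold lower at 2 h and by a bound of 4.00-fold lower after 16 h. CASP6, an executioner caspase, was 3.19-fold lower at 2 h by A_73_P269146 but 1.40-fold lower by A_73_117529, so its probes disagreed.

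CASP4, an inflammatory caspase, was 3.09-fold higher at 30 min and 3.02-fold at 2 h by A_73_P498493, and 2.27-fold and 2.46-fold by A_73_P110811. A further probe, A_73_P032741, gave 1.60-fold and 2.08-fold higher at these times and 2.53-fold lower at 8 h. BNIP3, a mitochondrial protein induced by low oxygen, had bounds of 8.91-fold at 30 min and 4.08-fold at 2 h over CTR by A_73_P383931, against 2.59-fold and 1.34-fold by A_73_119688. BCL2L15, a BCL2 relative, had bounds of 3.66-fold, 3.30-fold and 4.32-fold over CTR after 2, 4 and 16 h. Every change past 3-fold in the list fell on an array of the second slide. The rises of PMAIP1, BIRC3, CASP4 and BNIP3 at 30 min and 2 h fell on the arrays with a summed leukocyte signal of 98.7 and 67.0, against 7.1 in CTR, and the part of these markers was not tested.

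**Figure D5:**
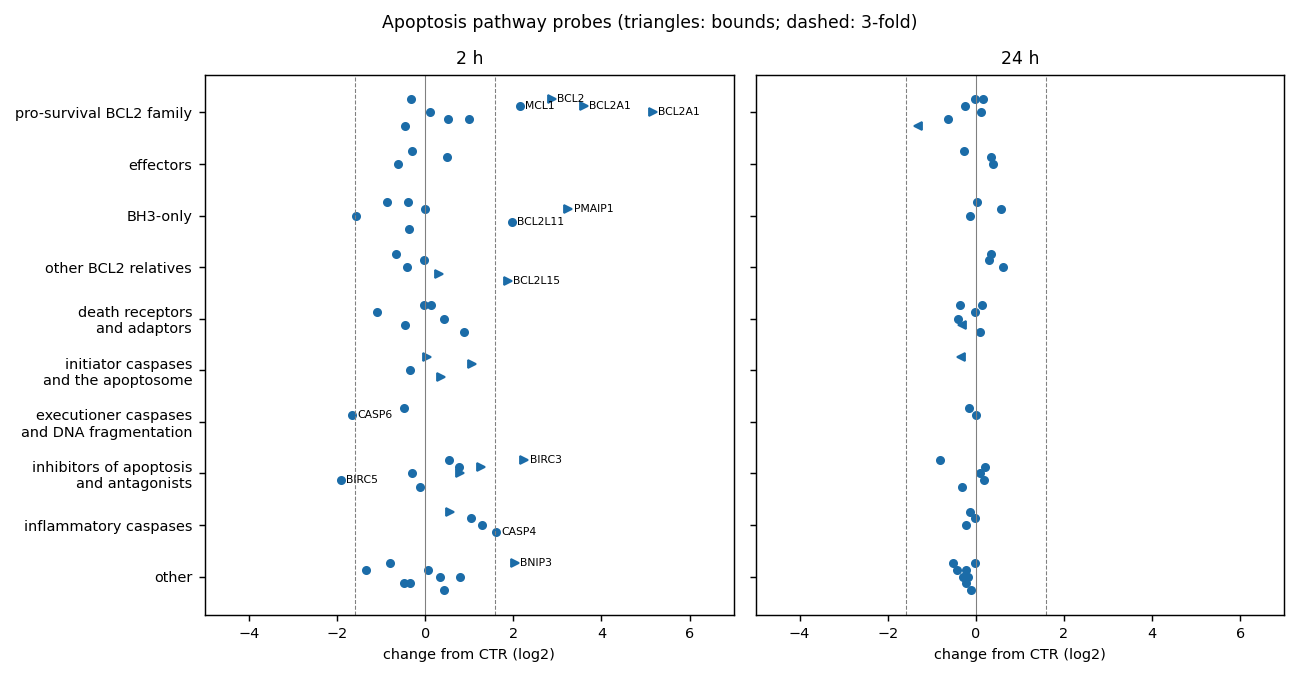
Change from CTR on the log2 scale at 2 h and 24 h of the apoptosis probes, members included, in rows by role; triangles are bounds and dashed lines mark 3-fold. At 2 h 5 listed genes besides the members pass 3-fold upward and 2 downward, and at 24 h no probe does.

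Patterns most like those of the members were sought among the 6365 probes detected on all arrays, by Pearson r over the 8 arrays. These values are descriptions; the arrays share the 2 slides and the scaling. MCL1 A_73_104021 was nearest to RASSF5 (r = 0.997), BASP1 (0.990) and COX4I1 (0.989), and BCL2L1 A_73_119599 to SETD8 (0.996), ATP6V1G1 (0.995) and NDUFA2 (0.989). BAX was nearest to BRE (0.972), GOLGA7 (0.960) and RTEL1 (0.958), and BID A_73_P040206 to CUTC (0.960), COPE (0.953) and XRCC1 (0.949). The level of MCL1 A_73_104021 had an SD of 1.26 over the arrays, against 0.65 for BCL2L1, 0.46 for BAX and 0.35 for BID. Where several probes of a gene were detected on all arrays, as for MCL1, the probe with the largest SD was taken. The other such MCL1 probe, A_73_P271841, varied less, with levels from -0.18 to 0.90.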

How the data were processed

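RNA of 8 buffalo MEC cultures (CTR and 7 times after heat stress) was labelled with Cy3 and hybridised by the authors to Agilent bovine 1-colour arrays, 1 per condition. The deposited scanner files hold the processed intensity of each spot, background-subtracted and detrended by Feature Extraction 9.5.3.1, together with its raw intensity. The authors' deposited log2 values had each array shifted to its 75th percentile and each probe centred on its median. From the scanner intensity, log2 levels minus the 75th percentile were computed here (Python 3.11.15, pandas 2.3.3, numpy 2.4.6); normexp in limma 3.58.1 (R 4.3.3) was an alternative. The 30 min level was the CTR level plus the deposited log2 difference. Spots of 1 probe were averaged. Probes at rows 216 to 330 and columns 30 to 59, dark on CTR, were left out. A probe called at 3-fold had to be well above background on either array. The errors came from probes spotted more than once, outside the dark patch, 13 to 23 of them on each array other than 30 min. The number of arrays limits the precision: with 1 per condition no p-value was computed.

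All 9 members were described with every probe. Other pathway genes were named where they passed 3-fold at 1 or more times (at most 12), and for each member with a probe detected on all arrays the 3 genes nearest in pattern were named; BAD and BAK1 were named after their values were seen. The members and lists were chosen with earlier results of these data known. Of the members, 9 of 9 are named in the buffalo RefSeq table. A pathway gene and a marker gene of the original lists are not reported here and were left out of the counts and sums.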

Additional observations from a re-analysis of the deposited data

How the results depend on the processing

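No paired analysis was possible because each condition has 1 array and the groups share fewer than 2 replicate numbers. The cause of the shifts below was not tested unless named. Of the members, 4 were 3-fold higher at 1 or more times; the count was 2 with only probes well above background on both arrays, which removes those dim in CTR, and 8 with the 30 min scanner intensities, under which BCL2 and MCL1 passed at 2 h only. Members 3-fold lower numbered 0, against 1 with the array median as scale, 4 with no filter on dim probes, 1 at 2-fold, 2 with the 30 min scanner intensities and 1 against an array of the same slide (BCL2 at 4 h). Probes 3-fold higher over the array numbered 1615, against 4210 (array median), 3450 (no filter), 556 (both arrays), 3296 (2-fold), 7294 (30 min scanner) and 1018 (same slide). Probes lower numbered 1933, against 996 (normexp), 1285 (array median), 23203 (no filter), 4500 (2-fold) and 4580 (30 min scanner). With the 30 min scanner intensities MCL1 A_73_104021 reversed at 30 min to at most -1.5. BAX minus A_73_104021 then became at least 4.32 and BAX minus A_73_P271841 at least 3.35, since neither MCL1 probe was well above background there. Under normexp BAX minus A_73_P271841 was 0.58 at 2 h and 0.97 at 4 h. Within the slide BAX minus A_73_104021 was -3.28, -2.9 and 0.17 at 30 min, 2 h and 4 h, BAX minus A_73_P271841 was -0.83, -0.7 and -0.26, and BAX minus BCL2L1 was -0.39, -0.04 and -0.46. Scaling by the array median moved the median of the probes detected on all arrays from -0.26 to 0.7 at 30 min, from -0.27 to 0.44 at 2 h and from -0.03 to 1.06 at 4 h, and then BCL2L1 and CASP8 also passed 3-fold; normexp moved it to 0.29 at 2 h and 0.5 at 4 h, with BCL2L1 then past 3-fold at 4 h (5 members in all), and the 30 min scanner file to 2.56 at 30 min. Of single probe changes, 673 stayed within the spot error under an alternative, 108 moved further and 1 reversed. The 673 include alternatives that cannot alter such a change, namely 2-fold, keeping the dark patch and leaving 30 min out. They also include the 30 min scanner intensities at the other times. The number therefore does not measure how stable the changes are. Most member probes lay near the detection limit on several arrays, which limits the changes that could be measured.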

Other observations

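The scanner file labelled 30 min, which served only as an alternative, gave flags that matched the detection by deposited values for 9 of the 19 member probes. Its 2 BCL2A1 probes disagreed, with a processed intensity of 3805 for A_73_P037501 and the placeholder of 21.6 for A_73_P208327. Around the member probes, the median shift of neighbouring spots within 10 spots ran from -0.66 to 0.52 on the log2 scale over 152 values, with 0 at or below -1.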
